A study of Mus musculus with 6 samples.

Results

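The genes described here are the secreted Wnt ligands, their Frizzled receptors, and a set of named co-receptors, antagonists, intracellular components, nuclear factors and target genes. They were taken by symbol: every Wnt and Fzd gene, plus Lef1, Tcf7, Tcf7l1, Tcf7l2, Axin1, Axin2, Apc, Nkd1, Sp5, Dkk1, Ctnnb1, Lrp5, Lrp6, Porcn, Notum, Rnf43 and Znrf3. This gave 46 genes of the 25239 in the authors' deposited table, and all 46 were among the 20461 genes with a p-value. RNA was sequenced from E14, a wild-type mouse embryonic stem cell line grown without serum in N2B27 with LIF and 2i. The 3 Ehmt2 siRNA libraries came from cells in which siRNA reduced Ehmt2, also called G9a, an enzyme that methylates histone H3 at lysine 9 and is linked to gene repression. The 3 control siRNA libraries came from cells given a control siRNA, and both groups were collected 3 days after transfection. The 2i supplement, which both groups received, contains a GSK3 inhibitor. The knockdown was transient, and the labels do not say whether libraries came from separate cultures, so p-values measure the spread between these libraries only.

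As background, Wnt proteins are lipid-modified by the acyltransferase Porcn and bind a Frizzled receptor together with Lrp5 or Lrp6. In the canonical branch, binding disables a destruction complex of Axin, Apc and GSK3 that otherwise marks β-catenin, the product of Ctnnb1, for degradation. Stable β-catenin then joins the Tcf and Lef DNA-binding factors at target genes such as Axin2 and Sp5. In naive embryonic stem cells a GSK3 inhibitor stabilises β-catenin inside the cell, without need of a ligand, and relieves repression by Tcf7l1.

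The deposited table holds 3 values a gene: the mean of all libraries, the log2 fold change between the groups and its p-value. From these, whole read counts per library were recovered for 45 of the 46 genes, Ctnnb1 being the exception. Levels below are normalized counts, which are reads divided by the library's size factor. Libraries are lettered A, B and C for Ehmt2 siRNA, with size factors of 1.25, 0.952 and 0.952, and D, E and F for control siRNA, with size factors of 1.05, 1.01 and 0.845. Their replicate numbers are unknown. Every log2 fold change is Ehmt2 siRNA over control siRNA with its standard error, and a gene passes at an adjusted p below 0.05 over all genes tested. The sign of the fold change was read from Ehmt2 itself, which had 3793, 3166 and 2977 normalized counts in Ehmt2 siRNA libraries, against 8878, 9021 and 10721 in control siRNA libraries. Its level was 34.7% of control (95% interval 29.4% to 41.0%). All 10 embryonic stem cell markers examined, Pou5f1, Sox2 and Nanog among them, were abundant (means of 12382 to 122043), and none passed. Of 10 markers of 2-cell-like cells all 10 were higher, with summed levels of 990 in Ehmt2 siRNA and 148 in control siRNA libraries. All but Zfp352 belong to the Zscan4, Tcstv and Usp17l families of related genes, so these are not 10 separate markers. The 10 primitive streak and mesoderm markers had none that passed, with Msgn1 at 0 and summed levels of 2936 in Ehmt2 siRNA and 2446 in control siRNA libraries. Of 10 primitive endoderm markers 1 was higher (Pdgfra, 1.56-fold) and 2 were lower (Gata4 at 49.9% and Amn at 20.5% of control). Their sums were 22918 in Ehmt2 siRNA and 25309 in control siRNA libraries. Of 10 fibroblast feeder markers 1 was higher (Col1a2, 5.39-fold) and 1 lower (Fbn1 at 70.0% of control), with Dcn at 0. Their sums were 524 in Ehmt2 siRNA and 501 in control siRNA libraries. Single genes weigh heavily in these sums. In Ehmt2 siRNA and control siRNA libraries Lama1 gave 22023 and 24317, T gave 2264 and 1661, and Col1a2 gave 185 and 34.3. The part of these cell types in the Wnt gene differences was not tested. In such bulk RNA, fewer cells of a type and less RNA per cell cannot be told apart.

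After Ehmt2 siRNA a few ligands, receptors, an antagonist, β-catenin and 1 DNA-binding factor changed, in both directions, while most Wnt genes did not pass. Of the 46 genes, 5 were higher in Ehmt2 siRNA cells (Lef1, Dkk1, Wnt3, Fzd8 and Ctnnb1), 3 were lower (Wnt11, Fzd6 and Fzd3) and 38 did not pass. That is 17.4% of the genes, beside 10.3% of all genes tested (5.45% higher and 4.82% lower). Of the 28 Wnt genes with a mean of at least 50, 7 passed (25%), beside 14.1% of all genes at that level. The median log2 fold change of all 46 genes was 0.11, against 0.0066 over all genes tested. At a mean of at least 50 it was 0.083 for the Wnt genes and -0.0022 for all genes. Among genes with a mean of at least 50 the median size of the log2 fold change was 0.180 for the Wnt genes and 0.116 for all genes. At an unadjusted p below 0.05 the count among all 46 was 9 higher and 4 lower, beside 19.7% of all genes tested. Of the 45 Wnt genes with recovered reads, 10 had groups that did not overlap (6 higher and 4 lower in Ehmt2 siRNA). Among other genes of the pathway, described below, this held for 31 of 108. With 3 libraries a group, an unchanged gene can also show this, and its share over all genes was not computed. The plot of all fold changes by role shows where each of the more abundant genes fell.

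**Figure D1:**
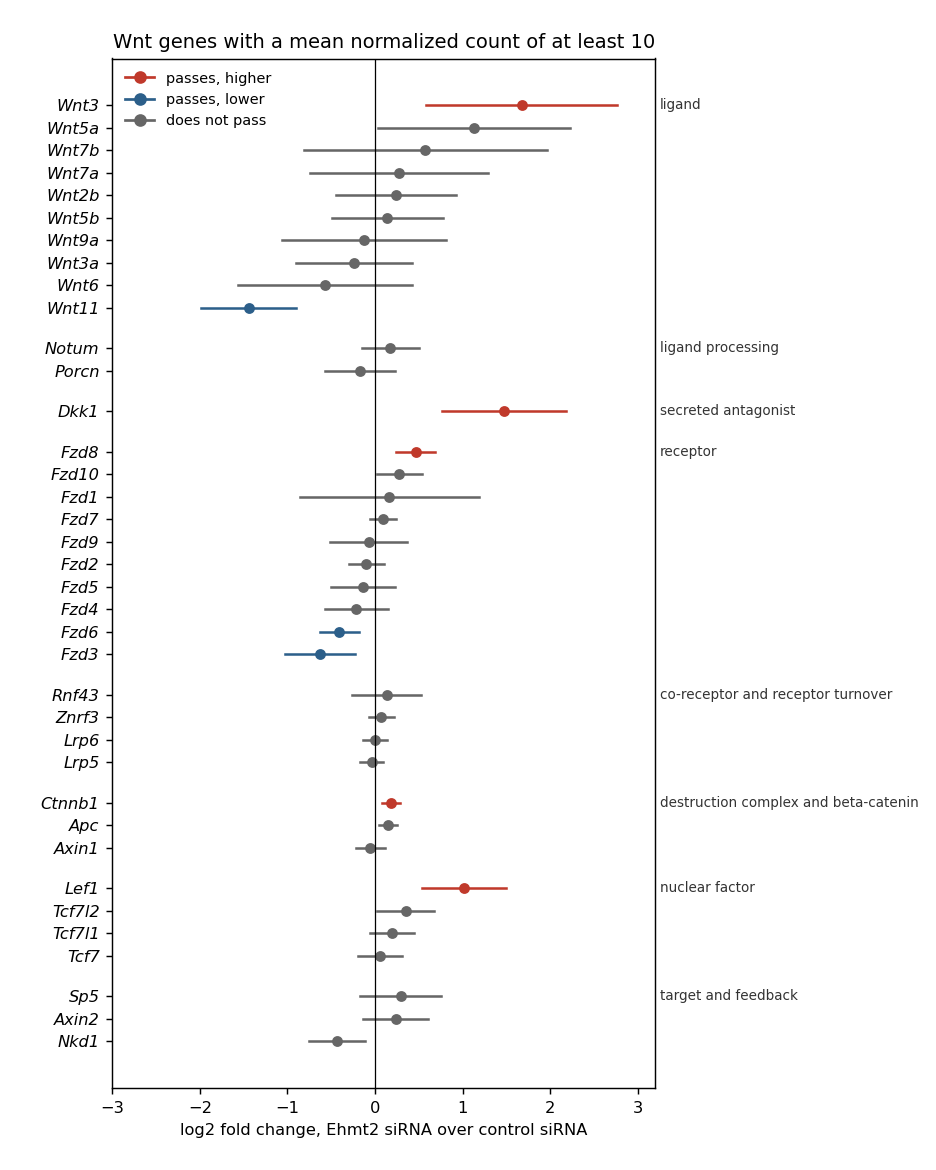
Log2 fold change (horizontal axis, Ehmt2 siRNA over control siRNA) with its 95% interval for the 37 Wnt genes whose mean normalized count was 10 or more, grouped by role. Red points passed and were higher, blue points passed and were lower, and grey points did not pass; the 4 nuclear factors all lie right of 0, while the receptors spread to both sides.

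Among the 19 ligands 1 was lower, the non-canonical ligand Wnt11, and 1 was higher, the canonical ligand Wnt3. That is 10.5% of the ligands, close to the 10.3% of all genes tested. Wnt11, on chromosome 7 at 98835084-98854747 of GRCm38, had 54.5, 59.9 and 66.2 normalized counts in Ehmt2 siRNA libraries, against 184, 194 and 110 in control siRNA libraries. The groups did not overlap, and library F was the lowest control library. Wnt11 fell by 1.44 ± 0.28 on the log2 scale to 36.8% of control (adjusted p = 1.10e-05). Wnt3, on chromosome 11 at 103774175-103818021, had 28.0, 90.3 and 53.6 normalized counts in Ehmt2 siRNA libraries, against 22.0, 22.9 and 8.29 in control siRNA libraries. Here too the groups did not overlap, but library A stood close to the control libraries D and E. The log2 fold change of Wnt3 was 1.68 ± 0.56 (adjusted p = 0.0301), with a 95% interval of 0.59 to 2.77. It no longer passed without library B (log2 fold change 1.19, adjusted p = 0.274), without C (adjusted p = 0.0505) or without F (adjusted p = 0.174). Wnt3 overlaps by 1.1 kb in RefSeq the Wnt9b gene on the other strand, which had 1 read in the Ehmt2 siRNA libraries and 3 in the control siRNA libraries.

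Wnt5b was by far the most abundant ligand and did not pass. It had 627, 339 and 300 normalized counts in Ehmt2 siRNA libraries, against 289, 308 and 554 in control siRNA libraries, so 1 library of each group stood above the rest (log2 fold change 0.14 ± 0.33). Wnt5a, a ligand known mainly for non-canonical signalling, had 24.0, 16.8 and 21.0 normalized counts in Ehmt2 siRNA libraries and 8.60, 5.97 and 14.2 in control siRNA libraries. Its groups did not overlap, yet at these low counts its log2 fold change of 1.13 ± 0.56 did not pass (unadjusted p = 0.0438, adjusted p = 0.232). The canonical ligand Wnt3a had a log2 fold change of -0.24 ± 0.34. Values for the other ligands with a mean of at least 10 were -0.12 for Wnt9a, 0.24 for Wnt2b, -0.57 for Wnt6, 0.57 for Wnt7b and 0.27 for Wnt7a, with standard errors of 0.35 to 0.71. The remaining 9 ligands (Wnt1, Wnt2, Wnt4, Wnt8a, Wnt8b, Wnt9b, Wnt10a, Wnt10b and Wnt16) had means of 0.175 to 3.90 normalized counts, too low to show any but a very large difference, and none had an unadjusted p below 0.05.

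Of the enzymes that act on ligands, neither passed. Porcn, which attaches the lipid, had 340, 337 and 261 normalized counts in Ehmt2 siRNA libraries and 287, 325 and 449 in control siRNA libraries (log2 fold change -0.17 ± 0.21). Notum, the secreted deacylase that removes the lipid and is itself a Wnt target in other tissues, had 5047, 3919 and 3438 normalized counts in Ehmt2 siRNA libraries and 3260, 3367 and 4381 in control siRNA libraries (log2 fold change 0.17 ± 0.17). In both genes the groups overlapped.

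Dkk1, a secreted antagonist that binds Lrp5 and Lrp6 and is a known β-catenin target, was higher after Ehmt2 siRNA. It lies on chromosome 19 at 30545876-30549496. It had 139, 98.7 and 70.4 normalized counts in Ehmt2 siRNA libraries, against 31.5, 30.8 and 49.7 in control siRNA libraries. All Ehmt2 siRNA libraries were above all control siRNA libraries, and the log2 fold change was 1.47 ± 0.36, or 2.78-fold (adjusted p = 0.00101). It passed without any 1 library (log2 fold change 1.19 to 1.73).

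**Figure D2:**
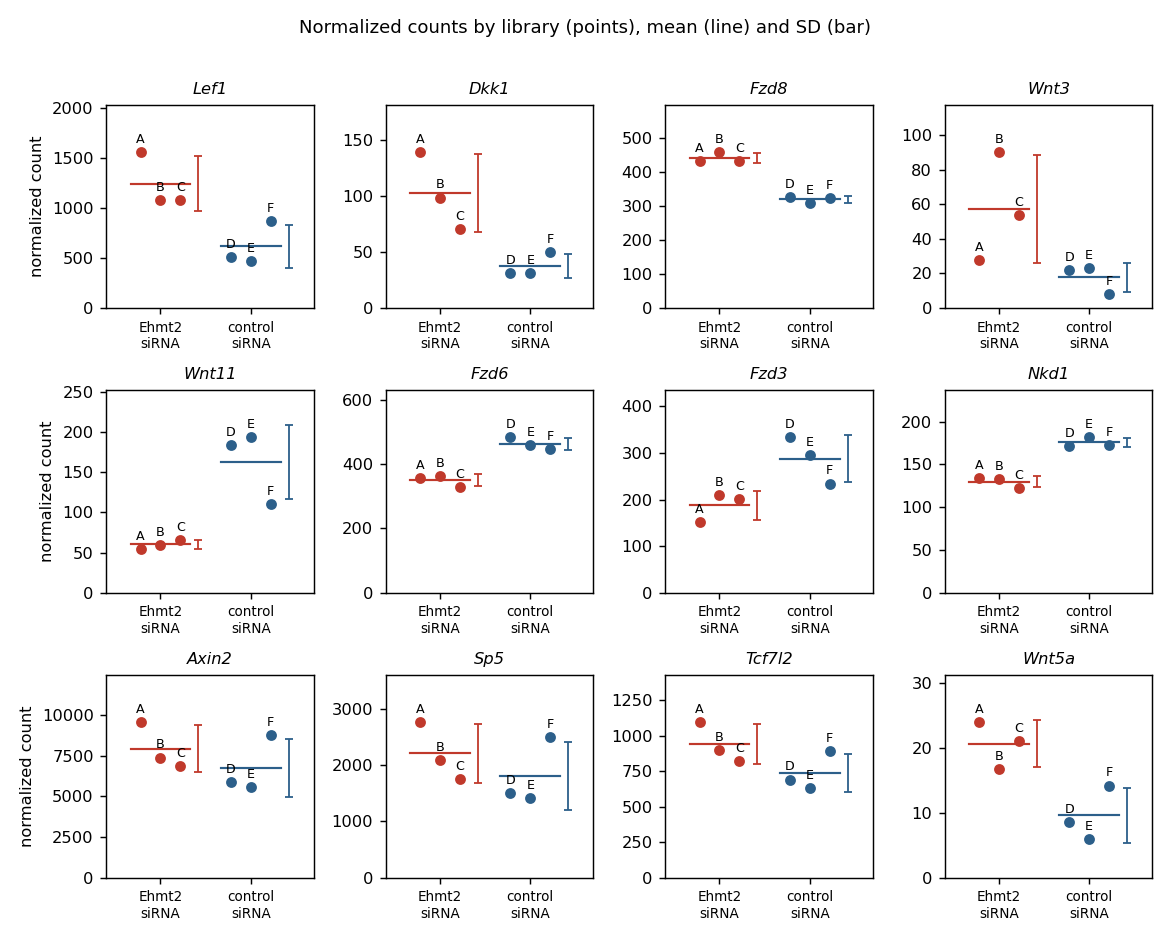
Normalized counts (vertical axes, from 0) of 12 Wnt genes in each library, with Ehmt2 siRNA libraries A to C in red left of control siRNA libraries D to F in blue; lines are group means and bars are SD (n = 3 each). In Lef1, Dkk1, Fzd8, Wnt3, Wnt11, Fzd6, Fzd3, Nkd1 and Wnt5a the groups do not overlap, while in Axin2, Sp5 and Tcf7l2 libraries A and F are the highest of their groups and the groups overlap.

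The 10 Frizzled receptors, which bind Wnt ligands through a cysteine-rich extracellular domain, split between 1 that was higher, 2 that were lower and 7 that did not pass. That is 30% passing, beside 10.3% of all genes tested and 14.1% of those with a mean of at least 50, a level that 9 of the 10 reached. Fzd8, on chromosome 18, had 433, 460 and 433 normalized counts in Ehmt2 siRNA libraries, against 327, 309 and 326 in control siRNA libraries. The spread within each group was small beside the gap between them, and the log2 fold change was 0.46 ± 0.11 (adjusted p = 8.98e-04). Fzd6, linked to planar cell polarity and at chromosome 15, 39006149-39038192, had 357, 362 and 328 normalized counts in Ehmt2 siRNA libraries, against 484, 458 and 447 in control siRNA libraries. It fell by 0.41 ± 0.11 on the log2 scale (adjusted p = 0.00556), and its groups did not overlap. Fzd3, also a planar polarity receptor and at chromosome 14, 65192441-65262463, had 151, 209 and 202 normalized counts in Ehmt2 siRNA libraries, against 334, 294 and 234 in control siRNA libraries. It fell by 0.63 ± 0.20 (adjusted p = 0.0253). Fzd3 no longer passed without library A (adjusted p = 0.186), without D (0.167) or without E (0.0648), while Fzd6 and Fzd8 passed without any 1 library.

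The receptors with the highest levels did not pass. Fzd5 had 12753, 8656 and 8797 normalized counts in Ehmt2 siRNA libraries and 9856, 9529 and 13820 in control siRNA libraries (log2 fold change -0.14 ± 0.19). Fzd10 had 8906, 7711 and 6887 normalized counts in Ehmt2 siRNA libraries and 6138, 5747 and 7493 in control siRNA libraries (0.28 ± 0.13, unadjusted p = 0.0366, adjusted p = 0.206). In both receptors library A was the highest of its group and F of the other. Fzd7, a main receptor of embryonic stem cells, had a log2 fold change of 0.09 ± 0.07. The other values were -0.10 for Fzd2, -0.21 for Fzd4, -0.07 for Fzd9 and 0.16 for Fzd1, the least abundant receptor with a mean of 13.9.

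None of the 4 co-receptors and receptor-turnover genes passed. The co-receptor Lrp6 had 6790, 6838 and 7402 normalized counts in Ehmt2 siRNA libraries and 7239, 6740 and 7093 in control siRNA libraries, with a log2 fold change of -0.003 (95% interval -0.14 to 0.13). Lrp5 had 7438, 7264 and 7472 normalized counts in Ehmt2 siRNA libraries and 7631, 7131 and 8017 in control siRNA libraries, with a log2 fold change of -0.04 (95% interval -0.17 to 0.10). Both intervals are narrow, and their signs turned under some of the alternatives. Znrf3 and Rnf43, the ubiquitin ligases that remove Frizzled receptors from the cell surface, had log2 fold changes of 0.07 ± 0.07 and 0.13 ± 0.20.

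Ctnnb1, which encodes β-catenin, was the most abundant Wnt gene and was slightly higher. Its deposited mean was 57832 normalized counts, and the mean and fold change together give 61555 in the Ehmt2 siRNA group and 54109 in the control siRNA group. The log2 fold change was 0.19 ± 0.05, or 1.14-fold (95% interval 1.06 to 1.22, adjusted p = 0.00555). Ctnnb1 lies on chromosome 9 at 120933400-120960507, and in GENCODE M21 the Ulk4 gene on the other strand overlaps it. Ulk4 had a mean of 351 and did not pass, and no source used here says whether reads were counted by strand. Apc, the scaffold of the destruction complex, had 18273, 18096 and 18572 normalized counts in Ehmt2 siRNA libraries and 16704, 15890 and 16939 in control siRNA libraries. Its groups did not overlap, but the log2 fold change of 0.15 ± 0.05 did not pass (adjusted p = 0.0576). Axin1, the other scaffold of that complex, had a log2 fold change of -0.05 ± 0.08.

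All 4 genes for the DNA-binding factors had a positive log2 fold change, and 1 of them passed. Lef1, which acts mostly as an activator with β-catenin and is itself a known target, lies on chromosome 3 at 131110297-131224357. It had 1559, 1084 and 1079 normalized counts in Ehmt2 siRNA libraries, against 507, 471 and 867 in control siRNA libraries. Its groups did not overlap, with means of 1240 ± 276 in Ehmt2 siRNA and 615 ± 219 in control siRNA libraries (SD, n = 3 each). The log2 fold change was 1.01 ± 0.24, or 2.02-fold (95% interval 1.45 to 2.82, adjusted p = 8.30e-04). It passed without any 1 library, with log2 fold changes of 0.82 to 1.34. An antisense gene, Gm43352, overlaps the start of Lef1 in GENCODE M21 and is not in the table.

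Tcf7l2 had 1100, 899 and 826 normalized counts in Ehmt2 siRNA libraries and 693, 636 and 890 in control siRNA libraries (log2 fold change 0.35 ± 0.17, unadjusted p = 0.0344, adjusted p = 0.197). Tcf7l1, the repressor that the GSK3 inhibitor counteracts in these cells, had 4315, 4119 and 3937 normalized counts in Ehmt2 siRNA libraries and 3266, 3220 and 4314 in control siRNA libraries (0.20 ± 0.13, adjusted p = 0.438). Tcf7, an activator, had 7241, 6100 and 6037 normalized counts in Ehmt2 siRNA libraries and 5659, 5727 and 7250 in control siRNA libraries (0.06 ± 0.13, adjusted p = 0.942). In all of these the groups overlapped through library F.

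**Figure D3:**
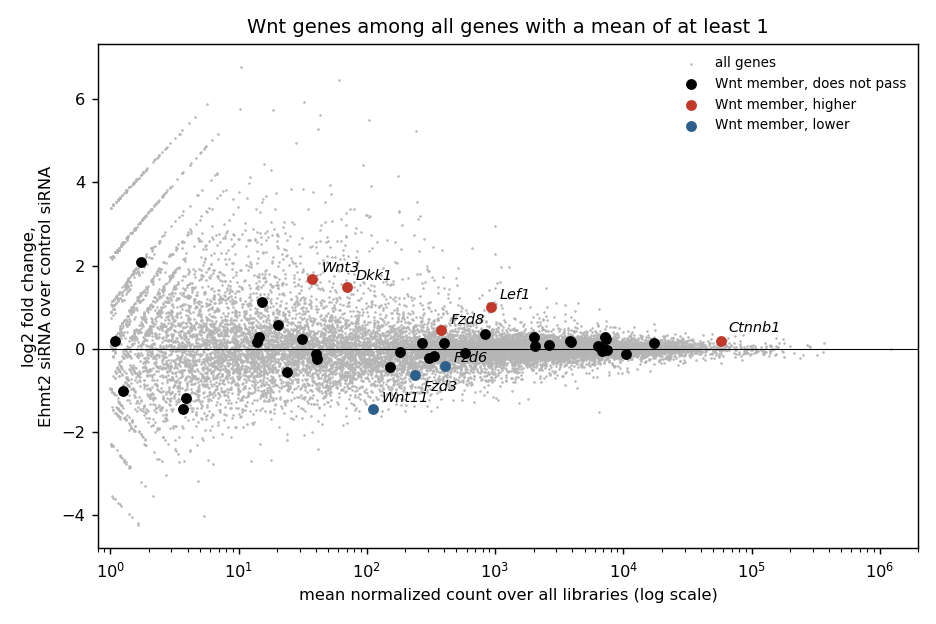
Log2 fold change (vertical axis, Ehmt2 siRNA over control siRNA) against mean normalized count (horizontal log axis) for all genes with a mean of at least 1 in grey and for the Wnt genes in black, or in red and blue where they passed. Ctnnb1, with a mean of 57832, passed at a log2 fold change of 0.19, while Wnt3, Dkk1 and Wnt11 passed at means of 37.5, 70.1 and 111 with log2 fold changes past 1 in size.

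The target and feedback genes Axin2, Sp5 and Nkd1 did not pass. Axin2, a negative regulator that is widely used as a readout of β-catenin activity, had 9590, 7392 and 6852 normalized counts in Ehmt2 siRNA libraries and 5873, 5596 and 8777 in control siRNA libraries. Its log2 fold change was 0.24 ± 0.19 (adjusted p = 0.604), and it ranged from 0.08 to 0.47 when each library was left out. Sp5, a transcription factor gene induced by Wnt in embryonic stem cells, had 2770, 2098 and 1753 normalized counts in Ehmt2 siRNA libraries and 1499, 1413 and 2503 in control siRNA libraries. Its log2 fold change was 0.29 ± 0.23 (adjusted p = 0.605). In both genes library F lay above 2 of the 3 Ehmt2 siRNA libraries. Nkd1, a feedback inhibitor that binds Dishevelled, pointed the other way, with 135, 132 and 123 normalized counts in Ehmt2 siRNA libraries and 172, 182 and 173 in control siRNA libraries. Its groups did not overlap, but its log2 fold change of -0.43 ± 0.16 did not pass (unadjusted p = 0.00832, adjusted p = 0.0718).

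The libraries shared an order across many of these genes. Among the 27 recovered Wnt genes with a mean of at least 50, library A was the highest Ehmt2 siRNA library in 15, and library F was the highest control siRNA library in 18. Lef1, Dkk1, Axin1, Axin2, Sp5, Tcf7, Tcf7l1, Tcf7l2, Fzd5, Fzd10, Notum, Porcn, Rnf43 and Wnt5b all had both A and F on top of their groups. Of these 27 genes Wnt11, Fzd3, Fzd4 and Fzd9 had the reverse order, with A and F the lowest. A had the largest size factor of the 6 libraries and F the smallest.

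Promoter sequences show where the TCF/LEF core motif lies at genes that changed. RefSeq promoter windows of GRCm38.p6, which run from 250 bases before to 50 after an annotated start, were at hand for 31 of the 46 genes. The core CTTTGA, searched on both strands, was in the windows of 6 of these 31 genes (19.4%: Lef1, Wnt11, Dkk1, Sp5, Fzd1 and Wnt5b), beside 18.2% of all 27025 genes with a window. The longer form CTTTGAT, which contains the core, was in those of 3 of the 31 genes and of 4.29% of all genes. Genes with several annotated starts, Lef1, Wnt11 and Ctnnb1 among them, have several windows and so more chances of a match. By window, 16.0% of all 32851 held the core. Of the 5 passing genes with a window, 3 held the core: Dkk1, Wnt11 and Lef1. Their 250 bases before the start are given because the first and the last of these rose while Wnt11 fell, with the core or its reverse complement TCAAAG in capitals. Dkk1 is read from the minus strand (chr19:30549497-30549746), Wnt11 from the plus strand at its first start (chr7:98834862-98835111), and Lef1 from the plus strand at its most downstream start (chr3:131156044-131156293).
Dkk1: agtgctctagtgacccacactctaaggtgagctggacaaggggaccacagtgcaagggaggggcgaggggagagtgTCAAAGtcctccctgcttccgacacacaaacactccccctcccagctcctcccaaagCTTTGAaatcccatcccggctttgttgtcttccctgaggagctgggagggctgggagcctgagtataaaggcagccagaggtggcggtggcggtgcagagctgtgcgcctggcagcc
Wnt11: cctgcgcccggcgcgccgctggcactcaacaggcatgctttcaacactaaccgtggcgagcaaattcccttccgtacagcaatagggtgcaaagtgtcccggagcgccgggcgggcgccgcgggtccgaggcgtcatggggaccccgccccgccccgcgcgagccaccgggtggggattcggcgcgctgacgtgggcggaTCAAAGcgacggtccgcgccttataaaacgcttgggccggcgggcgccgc
Lef1: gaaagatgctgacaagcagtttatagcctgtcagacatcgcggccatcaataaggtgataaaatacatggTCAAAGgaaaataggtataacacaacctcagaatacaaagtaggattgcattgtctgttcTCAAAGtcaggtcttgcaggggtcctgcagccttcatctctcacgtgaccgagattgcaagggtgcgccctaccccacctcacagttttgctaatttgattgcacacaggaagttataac

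Dkk1 and this Lef1 start each held 2 copies of the core, and Wnt11 held 1. The windows at the other 3 Lef1 starts and at the other Wnt11 start, both windows of Ctnnb1 and that of Wnt3 held none. The Wnt11 stretch held 37 CG pairs in its 250 bases, against 6 for Dkk1 and 5 for this Lef1 start. Such counts were not particular to the gene that fell. Ctnnb1 held 35 and 43 at its starts and Wnt3 held 22, and both rose. The other Wnt11 start held 16 and the other Lef1 starts held 6 to 14. By window, the median was 26 CG pairs for the Wnt genes and 7 for all promoters. A match is a run of letters only, and no binding was measured here. Fzd3, Fzd6, Fzd8, Wnt5a, Wnt7b, Wnt8a, Wnt10a, Fzd2, Axin1, Apc, Lrp5, Lrp6, Znrf3, Notum and Porcn had no window.

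Neighbouring genes were set beside those that changed. For each of the 8 passing Wnt genes the nearest protein-coding gene with a p-value on either side was taken. None of these 16 neighbours passed, beside 10.3% of all genes tested. Gjd4, Wnt9b, Baalc and Prkg1 had means of 0.325 to 2.95, too low to show any but a very large difference. Wac lay 1284 kb from Fzd8. At an unadjusted p below 0.05 stood Uvrag (0.0225), Hadh (0.0239), Wac (0.0288) and Fbxo16 (0.0414), beside 19.7% of all genes tested. Apart from Wnt9b, which overlaps Wnt3 (-1.68 ± 2.70), the closest were Nsf, 3.76 kb from Wnt3 (log2 fold change 0.008 ± 0.06), Ulk4 beside Ctnnb1 (-0.28 ± 0.21) and Fbxo16, 4.15 kb from Fzd3 (-1.10 ± 0.54, adjusted p = 0.223).

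Set per kb of the longest transcript, the levels of the Wnt genes differed by orders of magnitude. Ctnnb1 stood at 15962 normalized counts per kb, followed by Tcf7 at 2564, Fzd10 at 2199, Axin1 at 1799, Notum at 1764 and Axin2 at 1725. The ranges of Tcf7 (2443 to 2930 in Ehmt2 siRNA and 2290 to 2934 in control siRNA libraries) and Fzd10 (2119 to 2740 in Ehmt2 siRNA and 1768 to 2306 in control siRNA libraries) overlapped between libraries, although Tcf7 was above Fzd10 in each of the 6. Wnt5b led the ligands at 170 per kb, followed by Wnt11 at 32.3 and Wnt3a at 14.9 over all libraries. Wnt11 stood at 15.8, 17.3 and 19.2 per kb in Ehmt2 siRNA libraries, against 53.4, 56.2 and 31.9 in control siRNA libraries. Wnt3 stood at 9.11, 29.4 and 17.4 per kb in Ehmt2 siRNA libraries, against 7.14, 7.44 and 2.69 in control siRNA libraries, so Wnt11 was above Wnt3 in every control siRNA library but not in library B. Lef1 was below Tcf7 and Tcf7l1 in every library, while its order with Tcf7l2 differed by group. Lef1 stood at 426, 296 and 295 per kb in Ehmt2 siRNA libraries and 139, 129 and 237 in control siRNA libraries. Tcf7l2 stood at 296, 242 and 222 per kb in Ehmt2 siRNA libraries, where it was below Lef1, and at 186, 171 and 240 in control siRNA libraries, where it was above Lef1. The 3 Frizzled genes that passed were among the less abundant ones, with Fzd6 at 93.9, Fzd8 at 63.8 and Fzd3 at 18.7 per kb, against 1528 for Fzd5 and 581 for Fzd7.

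**Figure D4:**
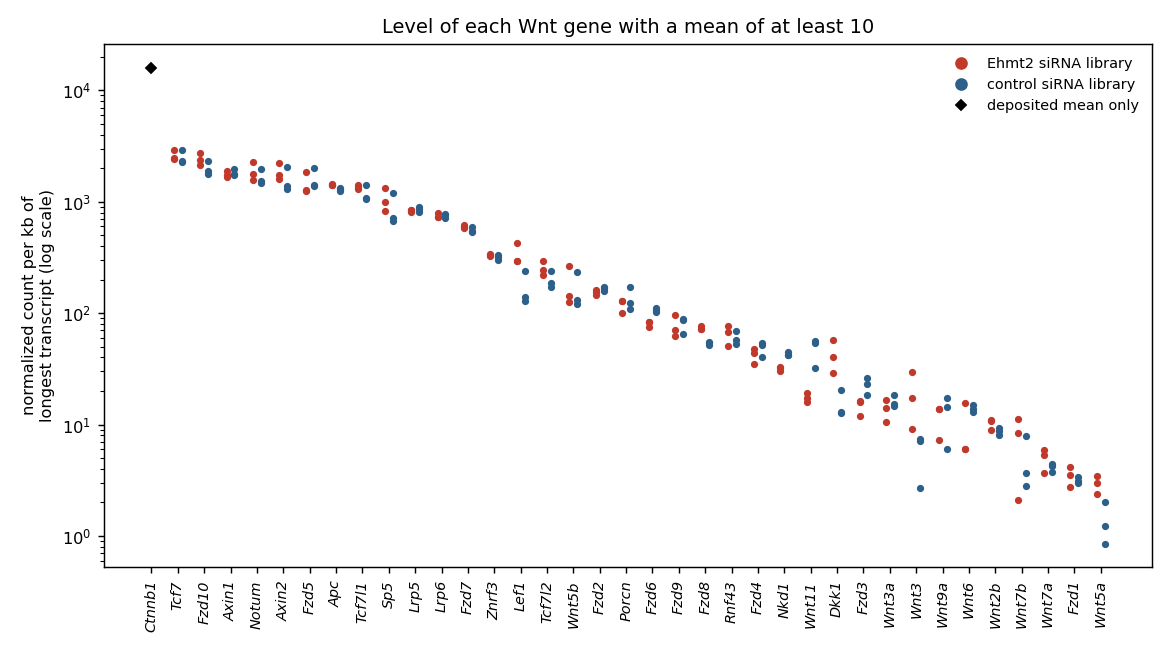
Level of each Wnt gene with a mean of at least 10, as normalized counts per kb of its longest transcript (vertical log axis), in order of the mean over all libraries. Red points are Ehmt2 siRNA libraries, blue points are control siRNA libraries, and the diamond is the deposited mean of Ctnnb1 at 15962; ligands other than Wnt5b lie at the low end.

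Other genes of the pathway were followed through 6 lists of 116 symbols, none of them among the 46. Of the 110 that were tested, 6 were higher, 10 were lower and 94 did not pass. That is 14.5%, beside 10.3% of all genes, and their median log2 fold change was -0.02. All 16 had a mean of at least 50, a level that 86 of these genes reached (18.6% passing, beside 14.1% of all genes at that level). By list, the share passing ran from 8.33% (planar polarity and non-canonical genes) to 20% (other target genes). Outside the cell, 2 of 18 secretion genes and extracellular modulators were lower and none was higher (11.1% passing). Sfrp1, a secreted Frizzled-like protein that binds Wnts, had 9442, 8552 and 8907 normalized counts in Ehmt2 siRNA libraries, against 12082, 12277 and 12491 in control siRNA libraries (log2 fold change -0.45 ± 0.06, adjusted p = 1.44e-10). Dkk3, a Dkk family member that, unlike Dkk1, is not a clear Lrp antagonist, fell by 0.40 ± 0.09. Of 12 co-receptors and receptor-level regulators 16.7% passed. Kremen2, a Dkk1 receptor, was lower (-0.49 ± 0.17, adjusted p = 0.0429) and Apcdd1, a membrane inhibitor and known Wnt target, was higher (0.39 ± 0.10).

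Inside the cell, 3 of 25 transducers and destruction-complex genes were lower and none was higher (12% passing, beside 10.3% of all genes tested). These were Nkd2 (-0.64 ± 0.22), the relative of Nkd1, and the Dishevelled-binding genes Dact2 (-0.36 ± 0.07) and Dact3 (-0.42 ± 0.12). The list as a whole leaned to neither side, with 4 higher and 3 lower at an unadjusted p below 0.05 and a median log2 fold change of -0.003. Of 18 nuclear cofactors 16.7% passed. The Groucho-type corepressor Tle3 (-0.29 ± 0.07) and the short family member Tle5 (-0.26 ± 0.05) were lower, while Tle1, another Groucho corepressor, was higher (0.27 ± 0.09, adjusted p = 0.0345). Of 12 planar polarity and non-canonical genes, which had a median log2 fold change of 0.04, 1 was lower (8.33%). This was Celsr1, a large cadherin of the planar polarity complex in which Fzd3 and Fzd6 also act. It had 2691, 2403 and 2773 normalized counts in Ehmt2 siRNA libraries, against 4406, 4231 and 3817 in control siRNA libraries (-0.66 ± 0.09, adjusted p = 1.93e-10). Its relatives Celsr2 (-0.35 ± 0.14) and Celsr3 (0.44 ± 0.25) pointed in opposite directions and did not pass.

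Of 25 other target genes, 4 were higher and 1 was lower. Cdx2, a caudal homeobox gene of trophectoderm and posterior embryo, had 731, 650 and 470 normalized counts in Ehmt2 siRNA libraries, against 182, 153 and 412 in control siRNA libraries (log2 fold change 1.31 ± 0.34). Sp8, a zinc-finger relative of Sp5, had 196, 168 and 153 normalized counts in Ehmt2 siRNA libraries, against 75.5, 61.7 and 115 in control siRNA libraries (1.05 ± 0.27). In Cdx2 and Sp8, as in Lef1 and Dkk1, libraries A and F were the highest of their groups. Tnfrsf19, a receptor gene known as a Wnt target, rose by 0.39 ± 0.09, and the nuclear receptor gene Nr5a2 by 0.25 ± 0.07. Ccnd2, which encodes cyclin D2, had 248, 235 and 207 normalized counts in Ehmt2 siRNA libraries, against 479, 403 and 414 in control siRNA libraries (-0.91 ± 0.14, adjusted p = 1.95e-08). Of these 16 pathway genes, Kremen2, Nkd2, Tle1, Apcdd1, Cdx2 and Dact3 no longer passed without some 1 library, Tle1 in 5 of 6 cases. Kremen2, Nkd2, Dact3 and Nr5a2 no longer passed once the trend on GC content was removed.

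**Figure D5:**
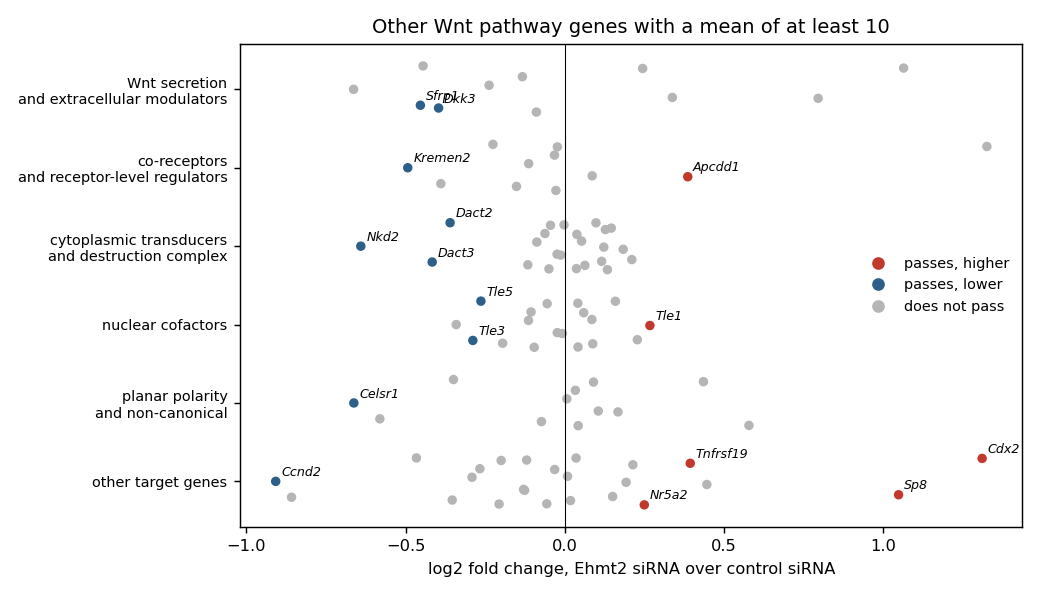
Log2 fold change (horizontal axis, Ehmt2 siRNA over control siRNA) of the other Wnt pathway genes with a mean of at least 10, 1 row per list, with vertical position within a row for legibility only. Red points passed and were higher (6 genes), blue points passed and were lower (10 genes), and grey points did not pass. The passing genes of the transducer list lie left of 0, while its other genes lie on both sides.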

How the data were processed

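Per the labels' protocols, polyA RNA was made into stranded libraries and read from both ends. FastQC, Trimmomatic 0.36, STAR, DESeq2, mm10 and GRCm38 appear in the submitters' processing notes, while no source used here names the annotation or the read counter. The 1 deposited table holds a signal per gene (the mean, across the 6 libraries, of reads divided by size factors), a log2 fold change, and an unadjusted p-value, per the file headers. Adjusted p-values were computed after Benjamini and Hochberg across the 20461 genes that carry a p-value; the other 4778 were at 0. Standard errors are the size of the log2 fold change over the normal quantile of its p-value.

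Genes with a single read take 6 values, which give the size factors. Whole reads per library were then solved from each deposited mean. They were kept only where a negative binomial model of them returned the deposited log2 fold change within 2e-14. Genes with few reads were the exception. At means up to 1.87, as for Wnt9b, the mean alone decided, and genes at a mean of 0 were given 0 reads. In all this gave 1 solution for 45 of 46 Wnt genes and 108 of 114 other pathway genes. Means above 20000 were not tried. The solution implies a Wald test. Read totals per library are unknown, so no interval from read totals was made. Both steps were tested on simulated data, but the simulated means did not reach those of the most abundant recovered genes, such as Apc and Fzd5. Where a library was left out, the gene's dispersion and the other genes' p-values were held.

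The genes and lists were chosen with earlier results of these data known. Named genes are all that pass, the main canonical components, others with a mean of at least 10 by value, and the nearest protein-coding neighbours. Symbols were matched to RefSeq (GRCm38.p6) and GENCODE M21. Python 3.11.15, scipy 1.17.1 and statsmodels 0.14.6 were used. The alternatives adjusted over genes with a mean of at least 10 or 50 or over the 16543 genes the table lists by significance, used Benjamini-Yekutieli adjustment, a threshold of 0.01, centring on the median or removal of a lowess trend on GC content (fraction 0.3), required a log2 fold change of at least 1, or left out each library. The family of 16543 genes, the leave-outs from recovered reads and the GC trend for the median were chosen after seeing the data.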

Additional observations from a re-analysis of the deposited data

How the results depend on the processing

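The counts of Wnt genes, 5 higher and 3 lower, became 3 and 1 under Benjamini-Yekutieli adjustment, and likewise 3 and 1 when a log2 fold change of at least 1 was also required. Leaving out each library, with Ctnnb1 (reads not recovered) held at its deposited call, gave 4 to 5 higher and 2 to 3 lower Wnt genes, and 3 to 6 higher and 7 to 12 lower among the other pathway genes, with 3 higher without library E. The median log2 fold change of the Wnt genes was 0.08 to 0.13 under its alternatives. Lef1, Dkk1 and Wnt11 passed under every alternative run. Fzd8 missed only the fold change requirement. Ctnnb1 (adjusted p = 0.0583) and Fzd6 (0.0584) missed that requirement and Benjamini-Yekutieli adjustment. Fzd3 missed that requirement, Benjamini-Yekutieli adjustment (adjusted p = 0.266) and the threshold of 0.01. Wnt3 missed Benjamini-Yekutieli adjustment (adjusted p = 0.317) and the threshold of 0.01. Both also missed with some libraries left out, as given above. Apc passed when p-values were adjusted over fewer genes (adjusted p = 0.0424 to 0.0467). The sign of Lrp5 turned with the GC trend removed (0.036). With a library left out, signs turned in 11 of the 36 recovered genes with a mean of at least 10, none of which passed in the full comparison: Lrp5 (-0.082 to 0.0020), Lrp6 (-0.044 to 0.020), Porcn (-0.30 to 0.033), Tcf7 (-0.033 to 0.18), Wnt5b (-0.26 to 0.50), Wnt9a (-0.45 to 0.17), Fzd5 (-0.34 to 0.06), Fzd9 (-0.27 to 0.05), Axin1 (-0.10 to 0.0045), Rnf43 (-0.0089 to 0.29) and Fzd1 (-0.0033 to 0.30). Wnt6 moved to -1.19 in 1 such case. The cause was not tested. No paired analysis was possible because the table carries no replicate numbers, and the recovered reads belong to libraries whose numbers are unknown. Low counts limit the ligands most, since 2 of 19 had a mean of at least 50.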
